A study of Homo sapiens with 27 samples.

Results

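Insertions of short and of symmetric piggyBac transposons were mapped in 12 libraries of HCT116 cells, and 1152 oriented insertion sites recurred in 6 or more of the 12 lists of peaks. They are 2.29% of the 50345 sites that these lists hold together and lie at 1112 positions, 40 of which recurred in both orientations. The sites were chosen from the lists themselves, by presence at the same base and strand, so presence and peak height in these 12 lists are given below as description and were not tested. A site is the first base of the 4-base target, read from the peak edge where coverage begins on its strand, and the strand is the direction in which the transposon read out into the genome.

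HCT116 is an established human colorectal carcinoma line. The study compared transposons and transposases genome-wide with self-reporting transposons, which carry a promoter that transcribes across the transposon's end into the neighbouring DNA, so that insertions are read from RNA. Cells were under puromycin at 3 µg/ml for 2 weeks, and the 27 libraries form 9 groups of 3 replicates, with nothing in the labels to say whether replicates were separate cultures, so that p-values measure the spread between these libraries, which may be technical. All groups share the HCT116 background and the puromycin selection.

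The short transposon was combined with piggyBac transposase (short_PB) or hyperactive piggyBac (short_hyPB). The symmetric transposon was used with 2 re-engineered transposases, one derived from piggyBac (sym_rePB) and one from its hyperactive form (sym_rehyPB). The wild-type transposon was combined with each of these 4 transposases (WT_PB, WT_hyPB, WT_rePB and WT_rehyPB), and a 9th group held the wild-type piggyBat transposon with piggyBat transposase (WT_PBat). What was altered in the short, symmetric and re-engineered forms is not spelled out in the labels. Short and symmetric transposons were never combined with the same transposase, so that transposon and re-engineering cannot be told apart between them.

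The piggyBac element, first found in a moth, moves by cut and paste: its transposase excises the element and inserts it at the tetranucleotide TTAA, which is duplicated on insertion. In mammalian cells piggyBac insertions are known to be enriched in open chromatin, near the starts of active genes and at enhancers. PiggyBat is a related element from a bat that uses the same target.

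The target is visible in the sequence under the recurring sites that lie in promoter windows, the only ones whose sequence was read. RefSeq promoter windows (GRCh38.p14, 250 bases before to 50 bases after a gene's start) held 33 of the 1152 sites (2.86%). They held 1.07% of the other sites of the 12 lists. All 33 read TTAA at exactly the defined base, against 96.2% of the other sites in such windows. The sequences below show the target in capitals within 20 bases on each side, in the sense of the gene. They are those of sites in 8 or more lists whose flanks lie wholly before the start of a protein-coding gene, leaving out 1 gene shown at more length afterwards.
SF3B1, chr2:197435237-197435280, minus strand: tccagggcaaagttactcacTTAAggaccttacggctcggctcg
MORC3, chr21:36320055-36320098, plus strand: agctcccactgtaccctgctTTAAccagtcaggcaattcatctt
TSPAN10, chr17:81642182-81642225, plus strand: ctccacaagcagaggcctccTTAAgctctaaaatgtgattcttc
SLC1A5, chr19:46784867-46784910, minus strand: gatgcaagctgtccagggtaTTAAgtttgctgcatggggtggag
EIF5A, chr17:7306869-7306912, plus strand: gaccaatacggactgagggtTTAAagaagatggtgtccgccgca
CSNK1E, chr22:38318182-38318225, minus strand: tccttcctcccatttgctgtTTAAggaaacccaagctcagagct
CNOT6L, chr4:77820388-77820431, minus strand: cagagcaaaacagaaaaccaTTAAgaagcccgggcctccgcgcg
The 6-letter palindrome TTTAAA, which contains the target and reads the same on both strands, was found at 7 of the 33 sites (21.2%), against 15.8% of the other sites of the 12 lists in such windows and 16.4% of the TTAA that all windows hold.

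The promoter of PCOLCE2, which encodes an enhancer of procollagen C-proteinase, and that of SF3B1, a core component of the U2 spliceosomal particle, held the sites before a protein-coding start that were in most lists, 10 of 12 each. A site after the start of NUDT2 was also in 10. The 250 bases before their starts are shown with the recurring target in capitals, in the sense of each gene, to give the distance between target and start.
PCOLCE2, chr3:142889084-142889333, minus strand: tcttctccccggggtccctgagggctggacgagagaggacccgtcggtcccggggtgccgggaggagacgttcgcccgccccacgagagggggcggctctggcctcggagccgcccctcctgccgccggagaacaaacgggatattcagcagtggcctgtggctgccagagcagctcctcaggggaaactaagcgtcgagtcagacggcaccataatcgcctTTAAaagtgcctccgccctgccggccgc
SF3B1, chr2:197435094-197435343, minus strand: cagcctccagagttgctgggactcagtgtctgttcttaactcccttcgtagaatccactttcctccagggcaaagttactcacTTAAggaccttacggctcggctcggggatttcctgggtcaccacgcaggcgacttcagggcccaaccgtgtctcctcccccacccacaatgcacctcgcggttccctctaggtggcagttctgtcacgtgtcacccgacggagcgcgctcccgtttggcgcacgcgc
The PCOLCE2 target begins 28 bases before the annotated start and is the only TTAA of its window. The SF3B1 target begins 167 bases before the start shown, and the window also holds a TTAA that none of the 12 lists has. Of the 33 windows, 22 held a single TTAA. The windows together held 53, of which 33 were recurring sites and 38 were in at least 1 of the 12 lists. Such windows held 1.61 TTAA on average, against 1.89 in all windows that hold any, and 46.1% of the 35116 windows hold at least 1.

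The depth of the libraries sets what a list can show. The last column of each list, taken as its total of mapped reads, ran from 179014 to 256608 in the 12 short and symmetric libraries and from 142666 to 179740 in WT_PBat, against 8118085 to 12051190 in the wild-type piggyBac libraries. The lists held 7058 to 9311 sites in short, 2846 to 4648 in symmetric, 6975 to 8974 in WT_PBat and 348662 to 598952 in wild-type piggyBac libraries. No list holds a peak with a height, the maximum coverage, under 5. Heights come from PCR reads, which are not independent molecules, so intervals below cover counting error only. WT_hyPB replicates 1 and 2 shared 75.1% of the shorter list and WT_PBat replicates 1 and 3 shared 52.1%, against 12.4% to 21.7% between wild-type groups and 8.89% to 10.2% for the other piggyBat pairs. The main tested effects that use these linked libraries are also given with each such pair averaged.

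Recurrence fell off steadily with the number of lists. Of the 50345 sites, 40819 (81.1%) were in 1 list, 574 in exactly 5, 396 in exactly 6 and 29 in all 12. Just inside and just outside the threshold the sites were alike in height, with a median highest peak of 13 for sites in 6 lists and 12 for sites in 5. Of the recurring sites, 308 were in 9 or more lists, and 787 (68.3%) had at least 1 list in each of the 4 groups.

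**Figure D1:**
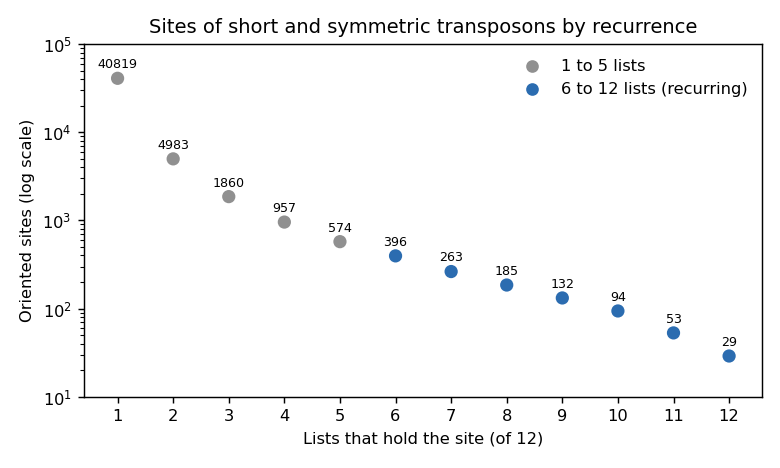
Number of oriented sites (log axis) against the number of short and symmetric lists that hold them; blue points are the recurring sites. Counts fall from 40819 sites in 1 list to 29 in all 12, with no gap at the threshold between 574 sites in 5 lists and 396 in 6.

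Nearly all recurring sites were in lists of both transposon forms, an outcome that the rule nearly fixes. A site in 6 or more lists can be confined to 1 form only by being in all 6 of its lists. Short and symmetric lists both held 1148 of the 1152 sites, and the other 4 were in all 6 short lists and in no symmetric list. A list held between 513 and 604 of the recurring sites in short_PB, 898 to 934 in short_hyPB, 616 to 700 in sym_rePB and 739 to 816 in sym_rehyPB. The short_hyPB libraries held most of them and the short_PB libraries fewest, without overlap between any of the 4 groups.

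The recurring sites took a larger share of the smaller lists. They were 5.63% to 13.2% of the sites of a short library and 17.6% to 24.4% of those of a symmetric library, and they carried 8.81% to 20.3% and 22.3% to 29.7% of the summed height. Where listed, their median height was 10 to 11 in short and 7 to 8 in symmetric libraries, against 6 to 7 and 5 to 6 at the other sites of the same lists. The rule favours tall sites, because a taller site passes the height floor in more lists.

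Sites chosen without a group were listed in that group far more often than other sites. Sites in 6 or more of the 9 lists of the other groups were listed in 39.1% to 45.2% of cases in the short_PB libraries, against 5.84% to 7.20% of the remaining sites. The corresponding shares were 78.1% to 83.3% against 7.42% to 7.75% in short_hyPB, 51.5% to 57.9% against 2.90% to 3.28% in sym_rePB and 64.4% to 68.1% against 3.79% to 4.73% in sym_rehyPB. In each of the 12 left-out libraries the chosen sites were listed more often than the rest. Pairs of short and symmetric lists shared 6.71% to 23.7% of the shorter list within a group (median 21.2%, 12 pairs) and 11.3% to 29.7% between groups (median 18.2%, 54 pairs). The ranges overlapped, and the median was higher within groups.

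The 29 sites present in all 12 lists lay in protein-coding genes (12 sites), in noncoding genes only (6) or in no annotated gene (11). The site with the highest median height was on chromosome 12 at 12883057 to 12883060, in the noncoding gene LOC124902881 and 8.50 kb from GPRC5A, a receptor of epithelial cells. Its heights were 16, 43 and 39 in short_PB, 57, 64 and 58 in short_hyPB, 41, 32 and 28 in sym_rePB and 52, 31 and 43 in sym_rehyPB. Short and symmetric libraries overlapped there. TRIOBP, which encodes an actin-bundling protein, lay 0.561 kb from a site on chromosome 22 at 37777117. That site had heights of 81, 72 and 83 in short_PB, 24, 73 and 21 in short_hyPB, 18, 21 and 25 in sym_rePB and 48, 29 and 21 in sym_rehyPB. All 3 short_PB libraries and short_hyPB replicate 2 stood above the rest there, and the other 2 short_hyPB libraries lay within the range of the symmetric ones. A site in LOC124902377 on chromosome 10 at 13302598, 2.53 kb from PHYH, the peroxisomal enzyme that starts the breakdown of phytanic acid, ran from 14 to 61 in short libraries (median 39.5) and from 13 to 29 in symmetric ones (median 21). It overlapped between the forms.

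Across the 29 sites the median of the 6 short libraries was above that of the 6 symmetric libraries at 27, but the ranges did not overlap at only 2 of them, and at none were the symmetric libraries higher without overlap. Those 2 sites, singled out after their values were seen, lay 0.228 kb from POFUT3, a protein O-fucosyltransferase, and 130 kb from MTAP, the methionine salvage enzyme. At the POFUT3 site on chromosome 8 (33473374) heights ran from 41 to 58 in short libraries (median 51) and from 8 to 29 in symmetric libraries (median 13). At the MTAP site on chromosome 9 (21672504) they ran from 13 to 24 (median 19.5) and from 10 to 11 (median 11). Heights are not scaled to the total, and the totals of the symmetric libraries lay within the range of the short ones.

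**Figure D2:**
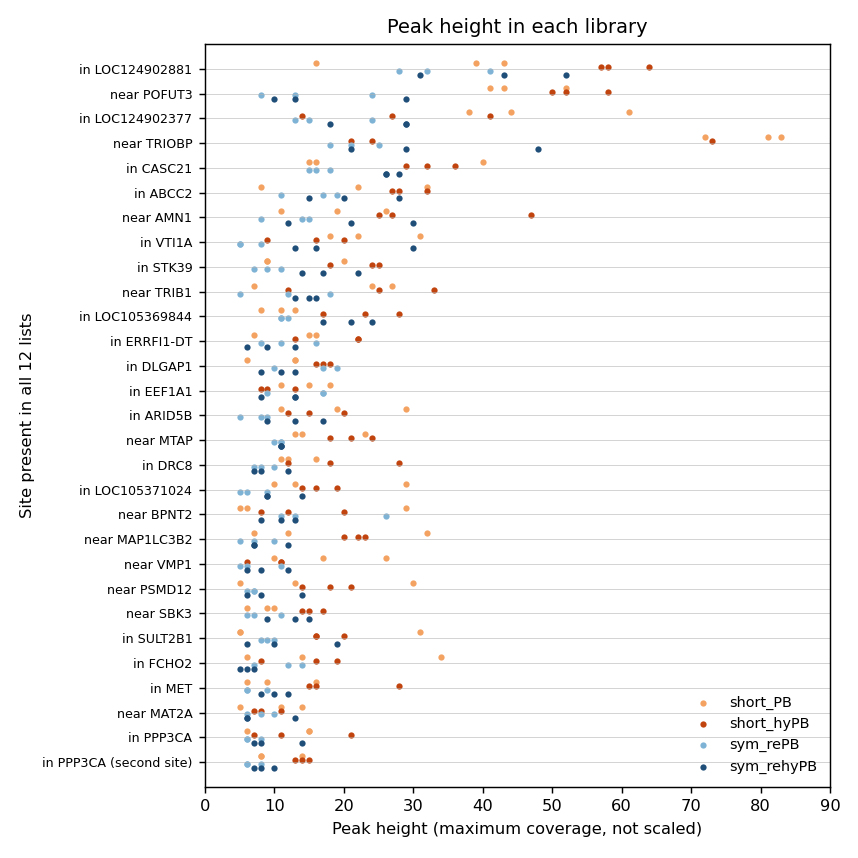
Peak height (maximum coverage, not scaled) in each of the 12 libraries at the 29 sites present in all 12 lists, ordered by median height. Each point is 1 library, coloured by group. Short libraries reach 83 near TRIOBP and symmetric libraries reach 52 in LOC124902881, and the forms overlap at all sites but those near POFUT3 and MTAP.

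The other sites of all 12 lists were in or near genes of varied roles. In protein-coding genes they lay in ABCC2 (an export pump for organic anions, median height 21), VTI1A (16), STK39 (a kinase that regulates ion cotransporters, 15.5), DLGAP1 (13), EEF1A1 (the translation elongation factor that delivers aminoacyl-tRNA, 13), ARID5B (a DNA-binding protein, 12.5), DRC8 (11.5), SULT2B1 (a cholesterol sulfotransferase, 10), FCHO2 (an endocytosis protein, 10), MET (9.5) and, at 2 sites, PPP3CA (8 each). In noncoding genes they lay in CASC21 (26), LOC105369844 (15), ERRFI1-DT (13) and LOC105371024 (11.5). Outside genes the nearest protein-coding genes were AMN1 (4.63 kb away, median height 20), TRIB1 (248 kb, 15.5), BPNT2 (0.397 kb, 11.5), MAP1LC3B2 (33.8 kb, 11), VMP1 (0.908 kb, 10.5), PSMD12 (44.0 kb, 10.5), SBK3 (1.94 kb, 10.5) and MAT2A (39.3 kb, 8).

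Among the 10 tallest sites by median height, 4 were missing from some list. A site in CRTAP, which encodes a subunit of the collagen prolyl 3-hydroxylation complex, had heights of 41, 0 and 58 in short_PB, 28, 52 and 32 in short_hyPB, 28, 6 and 34 in sym_rePB and 21, 25 and 22 in sym_rehyPB. Here 0 means not listed. The single absence was short_PB replicate 2, which also lacked a site 14.9 kb from CYB5B, a mitochondrial outer membrane cytochrome, that stood at 16 to 44 in the other 11 lists. A site in VTI1A at 112530958 (median 22.5) was missing from short_PB replicate 1 and sym_rePB replicate 2. A site 14.6 kb from PHB1, which encodes prohibitin, was listed in 7 libraries at 21 to 54 and was absent from the other 5. Tall and absent values thus stood side by side within groups at these sites.

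Genes held somewhat fewer of the recurring sites than of the other sites. Of the 1152 sites 673 (58.4%, Wilson 95% interval 55.6% to 61.2%) lay inside an annotated gene, against 62.7% (62.3% to 63.1%) of the other sites of the 12 lists, and 494 (42.9%) lay in a protein-coding gene, against 49.4%. The intervals treat sites as independent, which clustered sites are not, and the difference was not tested. Starts of protein-coding genes were nearer. Within 1 kb of a start lay 173 recurring sites (15.0%, interval 13.1% to 17.2%), against 7.06% of the other sites. Within 5 kb the shares were 28.3% and 19.8%, and within 50 kb they were 57.5% and 58.6%. Close to starts the recurring sites were the denser set, and at 50 kb the shares differed little.

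Orientation followed the other sites. In promoter windows of 1 strand the read-out ran away from the gene at 28 of 33 recurring sites (84.8%, interval 69.1% to 93.3%) against 81.0% of the other sites of the 12 lists. The share was 80.7% to 85.5% in WT_PBat libraries and 62.7% to 63.2% in WT_PB libraries. Inside protein-coding genes with 1 annotated strand, 171 of 417 recurring sites (41.0%) read out in the sense of the gene, against 41.0% of the other sites. Neither share of the recurring sites stood apart from its background. Of the 33 promoter sites 27 lay before the annotated start and 6 after it.

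Protein-coding genes that held a recurring site numbered 315 of 20056 (1.57%), and 262 of these held only 1. Their median length was 60.5 kb, against 24.1 kb for all protein-coding genes. The 12 genes with most held 154 recurring sites (13.4%). The following counts are numbers of recurring sites and are not scaled to length unless stated.

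PCDH7, which encodes a protocadherin, a cell adhesion protein, held 53 recurring sites over 426 kb on chromosome 4 (30720369 to 31146800), or 12.4 per 100 kb. A list held 21 to 23 of them in short_PB, 35 to 42 in short_hyPB, 28 to 34 in sym_rePB and 31 to 38 in sym_rehyPB. The short_PB libraries were lowest and did not overlap the other groups. The sites stretched from 25.1 to 383 kb behind the gene's start, and 25 of them read out in its sense. The most recurrent stood 59.8 kb behind the start, in 11 lists, with a median height of 20.5. PCDH7 also held 489 sites in fewer than 6 lists, so that 9.78% of its sites recurred, against 2.29% over all sites.

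VTI1A, a SNARE protein of vesicle traffic between endosomes and the Golgi, held 19 recurring sites over 408 kb on chromosome 10, with 16 in every short_hyPB list and 9 to 11 in short_PB. All but 1 lay between 37.3 and 84.7 kb behind the start, and the remaining one stood at 211 kb. DLGAP1, a scaffold protein of the synapse, is 959 kb long, and its 17 recurring sites lay within 77.2 kb, from 784 to 861 kb behind the start. In DLGAP1 all and in VTI1A all but 1 of the recurring sites thus took up a small stretch of the gene, while in PCDH7 they were spread.

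**Figure D3:**
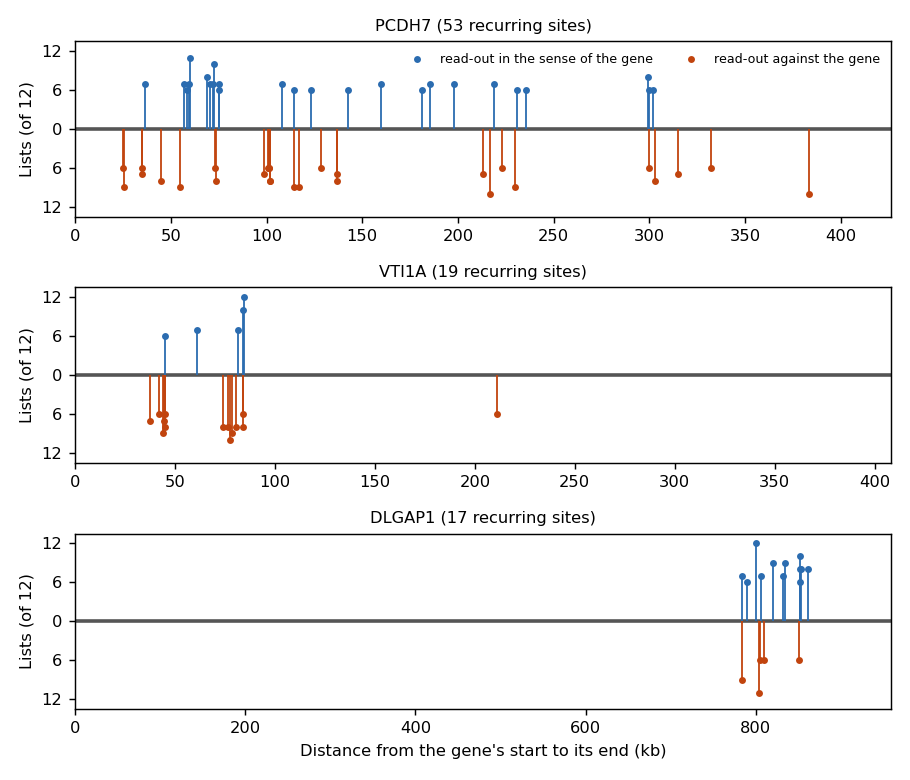
Recurring sites along PCDH7, VTI1A and DLGAP1 by distance from the gene's start (kb); the length of each line is the number of lists, upward for read-out in the sense of the gene and downward against it. The sites of PCDH7 run from 25.1 to 383 kb, those of DLGAP1 from 784 to 861 kb.

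The remaining genes of the 12 were PPP3CA, the catalytic subunit of calcineurin (13 recurring sites), MPP7, a scaffold of cell junctions (10), VMP1, a membrane protein needed for autophagy (9), MTHFD1L, a mitochondrial folate enzyme (7), NSMCE2, a SUMO ligase (7), PALLD, an actin-associated protein (6), PHLDB2, a protein of the cell cortex (5), SYTL3, an effector of vesicle traffic (4), and DST, a cytoskeletal linker (4). Per 100 kb these ran from 0.805 in DST to 6.69 in VMP1. A short_PB list held 0 to 7 of the 10 sites in MPP7. In VMP1 15.3% of the sites recurred. Noncoding genes with most recurring sites were LOC105369844 (11), LINC-PINT (11), ERRFI1-DT (10), CASC21 (8), MIR100HG (8, the host of a microRNA cluster), LOC124900807 (6), LINC00973 (6) and LOC105370364 (3, a count it shares with MSRB3-AS1, LOC105371870 and OSTCP1). The 6 sites of LOC124900807 are also the 6 of PALLD, which it overlaps.

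Genes of listed pathways held recurring sites in small numbers. None of 46 Wnt pathway genes did, and 2 of 51 genes of growth factor receptors and RAS-PI3K signalling did (3.92%), namely MET, the hepatocyte growth factor receptor, and RPTOR, a subunit of mTOR complex 1. None of 28 transcription factors of gut epithelium did, 2 of 18 genes of AP-1 and the stress response did (IER2 and KLF6, 11.1%), and none of 77 genes of ribosomal proteins did. The background over all protein-coding genes is the 1.57% above, and 0 to 2 genes of a list are too few to set apart from it. The site in MET (chromosome 7, 116689875) was in all 12 lists, at 6 to 28 in short (median 15.5) and 6 to 12 in symmetric libraries (median 8.5), which overlapped. Those in RPTOR, IER2 and KLF6 were in 7 lists each. The 20 giant genes of common fragile sites held none, with a median length of 1442 kb. DKK1, GRB2, JUND, RPL3, RPL5 and RPL11 held none but were the nearest protein-coding gene, within 50 kb, of a recurring site.

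Part of the recurring sites lay in clusters. When positions within 10 kb were joined, 135 clusters held 429 of the 1112 positions (38.6%), and the largest held 15. With a distance of 5 kb the share was 33.5%, and with 50 kb it was 50.4%. No such share was taken for the other sites, so whether these shares are high is not known. A recurring site had a median of 5 other sites of the 12 lists within 5 kb, against 1 for the other sites, and 29.4% against 6.63% had 10 or more. The opposite orientation of the same target was in at least 1 of the 12 lists for 28.0% of the recurring and 5.71% of the other sites. The neighbourhood is drawn from the same 12 lists that chose the sites, so it is a description.

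Of the 8 clusters with most recurring sites, 2 were in PCDH7, with 15 sites over 43.7 kb and 13 over 20.3 kb, and 2 in VTI1A, with 10 over 10.4 kb and 7 over 7.82 kb. The cluster near MTAP on chromosome 9 (21672216 to 21684318) held 12 sites in 12.1 kb, 118 to 130 kb from that gene. A cluster 5.87 to 14.6 kb from TMEM67, a protein of the ciliary transition zone, held 11 sites in 8.71 kb on chromosome 8 (93838522 to 93847234), with a median of 9 lists per site. A cluster 31.2 to 51.1 kb from EZR, which encodes the membrane-cytoskeleton linker ezrin, held 8 over 19.9 kb. The cluster in CASC21 on chromosome 8 (127249095 to 127254094) held 7 sites in 5 kb, all read out on the plus strand, with a median of 10 lists. Its median height of 10.5 was the highest of the 8 clusters, against 4.5 to 8 in the others. It was also the only one of the 8 whose sites all had 1 orientation.

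Over chromosomes, 107 recurring sites lay on chromosome 4 (9.29%, against 6.08% of all sites of the 12 lists), 100 on chromosome 17 (8.68% against 5.88%) and 65 on chromosome 19 (5.64% against 3.39%). Chromosome 13 held 11 (0.955% against 1.91%) and the X chromosome 5 (0.434% against 1.61%). The 53 sites of PCDH7 are among those on chromosome 4.

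The wild-type piggyBac libraries did not choose the sites, and their peaks covered nearly all of them. A peak on the same strand covered 93.4% to 99.4% of the recurring sites per library. Every one of the 1152 was covered in at least 1 of the 12 libraries, 948 of them (82.3%) in all 12. These counts over 12 libraries were not taken for the other sites, so they describe the recurring sites only. The opposite strand at the same positions was covered in 58.8% to 75.0%, and of the sites in 1 to 5 lists 34.8% to 52.0% were covered on their own strand. Among the latter, coverage rose with recurrence and reached 85.8% to 97.6% for sites in 4 to 5 lists, which overlaps the range of the recurring sites. In every library the share covered on the same strand was above that of the opposite strand and that of all sites in 1 to 5 lists. The totals of these libraries were far larger than those of the 12 that chose the sites. Whether reads assigned to the wrong library have a part in the sites held by both was not tested. Coverage was chosen as a measure after the data were seen. At exactly the same base 50.9% to 58.2% of the recurring sites were listed per library. The shares were 20.8% to 31.3% for sites in 1 to 5 lists and 47.4% to 51.7% for those in 4 to 5. Of the recurring sites, 215 were listed in none of the 12, a count also not taken for the other sites. These 215 lay inside wider peaks whose edge was at another base.

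**Figure D4:**
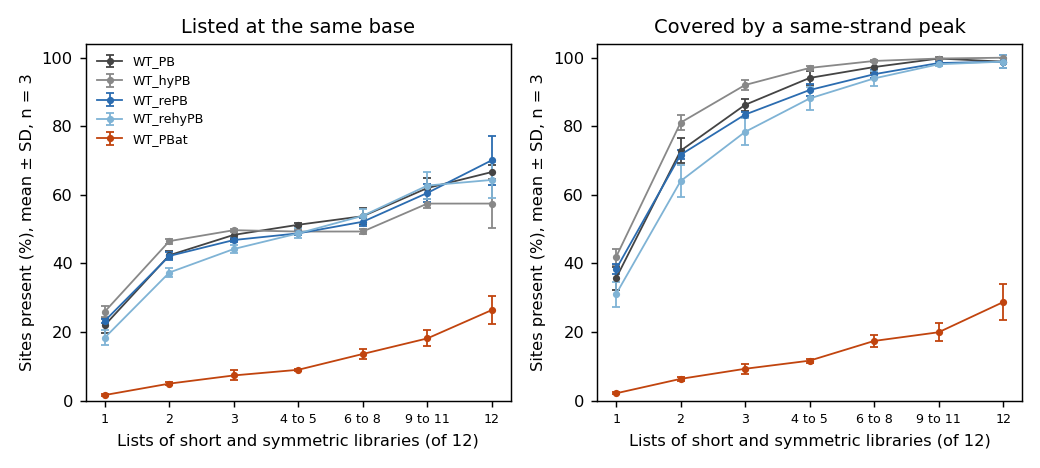
Share of sites present in wild-type piggyBac and piggyBat groups (mean ± SD, n = 3 libraries) against the number of short and symmetric lists that hold them, as listed at the same base and as covered by a same-strand peak. Coverage in wild-type piggyBac libraries lies above 90% for sites in 6 or more lists, and the piggyBat share rises from 1.65% in 1 list to 26.4% in 12.

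In the wild-type libraries the recurring sites were tall. Listed ones had median heights of 82 to 84 with WT_PB and 87 to 90 with WT_hyPB, and of 59 to 66 and 61 to 63 with the re-engineered WT_rePB and WT_rehyPB, against 10 to 13 over all sites of these libraries. Listed at their exact base, the sites made up a small part of the tallest class there. Sites inside a wider peak with its edge at another base are not counted in the shares below. The peaks that covered the recurring sites had median heights of 81 to 117 per library, and the height that ranks 1152nd was 124 to 141. A covering peak may begin at another base, so its height need not be that of the recurring site. Of the sites at or above the height that ranks 1152nd in a wild-type library, 5.05% to 10.99% were recurring sites, and 28.9% to 42.0% were in at least 1 of the 12 short and symmetric lists, against 2.36% to 3.41% of all its sites. Over the 1152 sites the summed height in the 12 lists and the covering height in a wild-type library had a Spearman correlation of 0.198 to 0.276, a weak relation across sites that share libraries.

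The height rank of the recurring sites was lower with re-engineered transposase. The rank is the median percentile of peak height of the listed recurring sites among all sites of their library. The WT_PB libraries had ranks of 98.7, 98.2 and 98.6 and the WT_hyPB libraries 98.8, 98.8 and 98.9. The WT_rePB libraries had 97.1, 97.6 and 97.5 and the WT_rehyPB libraries 94.8, 95.2 and 96.8. Re-engineered groups lay below their counterparts without overlap, with group means of 98.5 ± 0.29 against 97.4 ± 0.30 and of 98.8 ± 0.08 against 95.6 ± 1.04 (SD, n = 3 each). The mean difference was −2.18 percentile points (two-sided exact permutation p = 0.005, which is the smallest that these relabelings can give, and 0.025 after adjustment over 5 tests). All 6 re-engineered libraries were below all 6 others. With the linked WT_hyPB libraries averaged the difference was −2.19 points (exact permutation, adjusted p = 0.025). No such rank was taken for the other sites of the short and symmetric lists. Whether the shift is particular to the recurring sites was thus not tested. Among the tallest sites, by the height cut above, the share in any short or symmetric list was also lower with re-engineered transposase. It was 39.4% to 42.0% in WT_PB and 28.9% to 31.6% in WT_rePB. In WT_hyPB it was 37.0% to 37.5%, against 30.5% to 32.3% in WT_rehyPB. These shares include the recurring sites.

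The effect of the hyperactive transposase on the height rank of the recurring sites missed the threshold on average. It came to −0.74 points (exact permutation p = 0.21 and 0.325 after adjustment). WT_hyPB stood 0.32 points above WT_PB and WT_rehyPB −1.80 points from WT_rePB, in each case without overlap. With the linked libraries averaged the effect was −0.73 points. It moved to −0.31 points for sites in 8 or more lists and to −0.30 points at equal list length, where each library kept its 348662 tallest sites. At equal length WT_rePB libraries had ranks of 95.8, 96.1 and 96.3 and WT_rehyPB libraries 94.8, 94.97 and 96.1, which overlapped. The lists of WT_rehyPB, with 348662 to 444221 sites, were shorter than those of WT_rePB, with 569058 to 598952. The re-engineering effect at equal length was −2.71 points (exact permutation, adjusted p = 0.025).

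**Figure D5:**
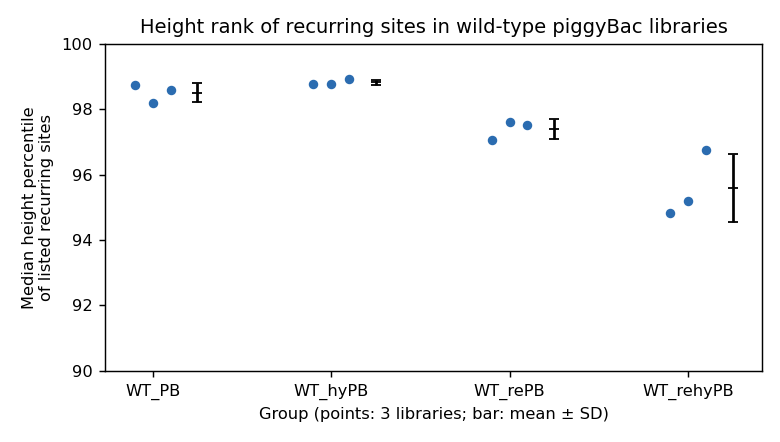
Median height percentile of the listed recurring sites in each wild-type piggyBac library (points), with the mean ± SD of the 3 libraries of a group (bars); the axis starts at 90. WT_PB and WT_hyPB libraries lie between 98.2 and 98.9, WT_rePB between 97.1 and 97.6 and WT_rehyPB between 94.8 and 96.8.

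The share of recurring sites listed in a wild-type library depended on how presence was counted. The 3 WT_PB libraries listed 53.5%, 58.2% and 56.7%, those of WT_hyPB 51.6%, 52.0% and 50.9%, and the shares were 53.5%, 54.2% and 56.3% in WT_rePB and 58.1%, 57.6% and 53.3% in WT_rehyPB. WT_hyPB lay below each of the other 3 groups without overlap, and those 3 overlapped one another. The hyperactive effect was −1.48 points (exact permutation p = 0.325, adjusted p = 0.325) and the re-engineering effect 1.68 points (exact permutation p = 0.29, adjusted p = 0.325), neither past the threshold. With the linked WT_hyPB libraries averaged they were −1.56 and 1.76 points. Counted as covered, the means over 3 libraries were 97.9% ± 1.28 (SD) for WT_PB and 96.1% ± 0.70 for WT_rePB, and 99.2% ± 0.18 for WT_hyPB and 95.1% ± 1.69 for WT_rehyPB. The re-engineering effect was then −3.01 points (exact permutation p = 0.01, adjusted p = 0.03). Counted in either orientation it was −2.45 points (exact permutation p = 0.005, adjusted p = 0.0125). For sites in 1 to 5 lists the covered means were 43.2% in WT_PB and 45.1% in WT_rePB. They were 49.5% in WT_hyPB and 38.0% in WT_rehyPB. A lower covered share in WT_rehyPB than in WT_hyPB was thus not particular to the recurring sites. The effect on the other sites was not tested.

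PiggyBat libraries, made with another transposon and transposase, also held recurring sites. At least 1 of the 3 libraries listed 311 of the 1152 (27%, Wilson 95% interval 24.5% to 29.6%), against 5.12% of the other sites of the 12 lists. By library the share was 14.2%, 13.8% and 17.1%, against 2.32%, 2.25% and 2.73% of the other sites, so each of the 3 libraries listed recurring sites more often. All 3 libraries listed 52 of the sites, 2 libraries 105 and 1 library 154. This split counts the linked replicates 1 and 3 separately and was not taken for the other sites, so it is only a description. Replicate 2, which is not one of the linked libraries, listed 159, of which 75 were also in replicate 1 or 3. Of all its sites, replicate 2 shared 8.89% with replicate 1 and 10.2% with replicate 3. Of 315 protein-coding holders 113 had a recurring site listed in piggyBat. Genes with more recurring sites had more chances of this, and no such share was taken for other genes, so it is only a count. The share rose with recurrence, from 1.65% ± 0.17 of sites in 1 list to 26.4% ± 3.98 of those in all 12 (SD, n = 3 libraries).

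In the piggyBat lists these sites were taller than the rest but made up little of the whole. Their median height was 10.5, 12 and 11 in replicates 1 to 3, against 7 for the other sites of each, and their median percentile of height was 71.6, 79.5 and 74.3. They were 2.195% to 2.28% of the sites of a piggyBat library. The opposite strand at the same positions was covered in 2.60% to 3.65%, against 16.7% to 20.6% on the same strand.

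At equal list length piggyBat listed fewer of the sites than piggyBac. With each list reduced to its tallest sites, as many as the shortest WT_PBat list holds, WT_PB libraries listed 29.9%, 30.2% and 30.0% of the recurring sites and WT_PBat libraries 13.9%, 13.8% and 15.1%. The groups did not overlap, with means of 30.0% ± 0.16 and 14.2% ± 0.71 (SD, n = 3), and the difference of −15.8 points reached the smallest p that 3 against 3 allows (two-sided exact permutation p = 0.1, adjusted p = 0.25). With the linked piggyBat libraries averaged it was −15.9 points. The sites were chosen from lists made with piggyBac or transposases derived from it, so the choice itself may favour WT_PB. Equal length is also not equal depth, since the WT_PB sites kept are the tallest of far longer lists with far larger totals.

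The sites described next are the 10 tallest, by summed height, of the 52 that all 3 piggyBat libraries listed. The tallest, on chromosome 1 at 16905443 and 8.64 kb from CROCC, which encodes the ciliary rootlet protein rootletin, had heights of 246, 225 and 246 in piggyBat replicates 1 to 3. In short libraries it ran from 0 to 22 (median 6) and in symmetric ones from 0 to 9 (median 3), far below the piggyBat heights. CROCC has near-identical pseudogene copies on that chromosome, so reads there may be split or misplaced. Among the other 9 of these sites the greatest height was 81.

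Next came a site in TRIB1, which encodes a pseudokinase, with heights of 40, 56 and 74 in the piggyBat replicates, one in LINC-PINT with 26, 81 and 52, and the PHYH site described above with 31, 61 and 52. In CPSF1, a subunit of the complex that cleaves and polyadenylates messenger RNA, a site had heights of 10, 63 and 42. Replicates differed by several fold at this site. The remaining ones of the 10 followed with heights between 16 and 51, 1 of them in DLGAP1. For the rest the nearest protein-coding genes were SLC1A4 (150 kb away), BPNT2 (0.397 kb), IRF2BPL (68.5 kb) and GAS2L1 (0.284 kb). Only the PHYH and BPNT2 sites among these 10 were in all 12 short and symmetric lists, and of the 29 sites in all 12 lists 15 were in at least 1 piggyBat library. The GPRC5A and TRIOBP sites, among the tallest with the short transposon, were in none of the 3.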

How the data were processed

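Each library came as 1 headerless list of peaks. The deposited values are coverage signal per peak, as a sum and as a maximum (the height), unscaled as far as the values show; per the labels nothing more is said of scaling, and the last column, constant within a list, was taken as total mapped reads, which no source states. Per the submitters' processing notes, cutadapt 3.4 and HISAT2 2.2.1.0 and the build hg38 (GRCh38) were used, and the peak caller is not given in the sources used here. Sites on the minus strand were set at the peak's end minus 3 bases, so that both strands name the first of 4 target bases. Gene and promoter positions and sequences were RefSeq's for GRCh38.p14.

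Sites in 6 or more of 12 lists were taken, and clusters joined positions within 10 kb. Members, gene lists and tests were chosen with earlier results of these data known. Named sites and genes followed a rule: sites in all 12 lists, the 10 tallest, the 12 genes and 8 clusters with most members (8 noncoding genes were added after the values were seen), the 10 tallest in most piggyBat libraries, and holders from the gene lists. Promoter sites were named after their values were seen. Tests were two-sided exact permutation tests over libraries with labels exchanged within pairs of groups and Benjamini-Hochberg adjustment over 5 tests, run with Python 3.11.15, numpy 2.4.6, pandas 2.3.3 and scipy 1.17.1, and the functions were tested on simulated data. The 12 wild-type lists and the piggyBat lists hold the only values tested. Alternatives covered the list threshold, orientation, distance, list length, blocks, linked libraries and single libraries left out, and coverage by a peak was added after seeing the data.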

Additional observations from a re-analysis of the deposited data

Results flagged for a closer look

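The hyperactive transposase moved the height rank of the recurring sites by 0.32 percentile points for WT_hyPB against WT_PB and by −1.80 points for WT_rehyPB against WT_rePB, a difference of 2.12 points (exact permutation with labels exchanged within these pairs, p = 0.005 and 0.02 after adjustment over 4 tests). The call did not hold in all settings, which were chosen after seeing the data. At equal list length the difference was 0.98 points (exact permutation, adjusted p = 0.06), and WT_rehyPB lists are shorter than WT_rePB lists. Without WT_rePB replicate 1, 2 or 3 it was 2.29, 2.01 and 2.06 points, with adjusted p-values of 0.107, 0.0933 and 0.0867 (exact permutation). With the linked WT_hyPB replicates 1 and 2 averaged it was 2.15 points (exact permutation, adjusted p = 0.04). The exchange of labels tests whether the hyperactive transposase had no effect in either pair. The same 2.12 points, with labels exchanged between re-engineered and parental groups, had p = 0.215 (exact permutation).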

How the results depend on the processing

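With 8 or more lists required, 493 sites recurred, and with a height of at least 10 required, 182 did, against 1152. Leaving out 1 library gave 876 to 1017. The re-engineering effect on the share listed reversed in either orientation (−2.45 points) and counted as covered (−3.01 points, a measure chosen after seeing the data), and the hyperactive effect reversed to 0.17 points counted as covered; the cause was not tested. With the replicate block the re-engineering effect on height rank was −2.18 with an adjusted p of 0.156 (exact permutation), where the block allows no unadjusted p under 0.03125. The block changed no other call. Deviations of same-numbered replicates had correlations of −0.02 to 0.06, which cannot show whether such replicates shared a culture or day. Over its other alternatives this effect ran from −2.71 to −1.34 and stayed past the threshold. The hyperactive effect on height rank (−0.74) was −0.31 for sites in 8 or more lists and −0.30 at equal list length, not past the threshold in any setting. Its difference between pairs (2.12) fell to 0.98 at equal list length (adjusted p = 0.06, exact permutation) and was 1.73 to 2.71 with 1 library left out, with the call lost without each WT_rePB library. The mean piggyBat share of 15.0% moved to 17.0% in either orientation and 18.3% counted as covered, and was 14.02% to 15.7% with 1 library left out. With 1 library left out the piggyBat difference ran from −16.2 to −15.5 points, the hyperactive effect on the share listed from −2.13 to −0.72, the re-engineering effect on it from 1.02 to 2.43, and the effects on height rank from −1.04 to −0.55 (hyperactive) and from −2.47 to −1.98 (re-engineering). Inside protein-coding genes lay 42.9% of the sites, and clusters held 33.5% of positions at 5 kb and 50.4% at 50 kb. Without a shortened list the piggyBat difference was −41.1 points. The height floor of 5 and the shallow lists limit what absence from a short, symmetric or piggyBat list shows.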
